A study of Mus musculus with 42 samples.

Results

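Fgf4, Fgfr1, Fgfr2, Spry2, Spry4, Spred1, Dusp4, Dusp6, Etv4 and Etv5 are a ligand, 2 receptors, 5 feedback inhibitors and 2 transcription factors of the FGF-ERK pathway. They were chosen by gene name as 10 of the 48321 names counted in each of 2 mouse RNA-seq tables, and all 10 passed the filter on low counts in both. The tables follow embryonic fibroblasts (MEF) on their way to induced pluripotent stem cells (iPSC) in 42 libraries of 14 groups, with 3 libraries in each group and 21 in each table. The labels name the 2 tables as separate sequencing batches, so values were compared within a table only.

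The first table holds 3 lines called naivex2. They come from a cross of B6; 129S4-Tg(Tet1-mCherry)B37Koh with B6;CBA-Tg(Pou5f1-EGFP)2Mnn/J and carry both reporters, genotype Tg(mCherry)/wt; Tg(GFP)/wt. Its groups are the parental MEF at day 0, cells sorted as mCherry+/GFP- at days 10, 12 and 14 (all labelled stage III), cells sorted as mCherry+/GFP+ at day 12 (stage IV) and day 14 (stage V), and clonal iPSC lines at passage 6-7. The second table holds 3 lines called totalx2, from B6- Tet1tm1.1Koh and B6;129S4-Pou5f1tm2Jae/J mice and labelled with the same genotype. These were sorted as mCherry+/GFP- at days 8, 10 and 12 (stage I) and as mCherry+/GFP+ at day 10 (stage II) and day 12 (stage III). The same table also holds 3 wild-type (wt/wt;GFP/wt) and 3 Tet1 knockout (mut/mut;GFP/wt) clonal iPSC lines from B6- Tet1tm1Koh and B6;CBA-Tg(Pou5f1-EGFP)2Mnn/J. Every library is labelled male. By the naivex2 strain names mCherry reports Tet1 and GFP reports Pou5f1, which encodes the pluripotency factor OCT4. The iPSC were grown on feeder cells and depleted of them before harvest, and how reprogramming was started is not given in the sources used here. Each iPSC library is thus a clonal line, and the 3 libraries of a sorted group come from 3 independent lines.

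FGF ligands bind receptor tyrosine kinases that signal through RAS, RAF and MEK to the kinase ERK. ERK activity induces its own inhibitors, among them Sprouty and SPRED proteins, which act on RAS-RAF signalling, and dual-specificity phosphatases, which remove the activating phosphates from ERK, along with ETS-family transcription factors. In mouse embryonic stem cells FGF4 made by the cells themselves drives this pathway and primes exit from naive pluripotency. The transcript levels of the feedback genes and of Etv4 and Etv5 are widely used as readouts of the pathway, but phosphorylated ERK was not measured here.

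The stretches upstream of the transcription start of Fgf4, Dusp6 and Spry2 are shown because these 3 genes went different ways between the sorted cells: Fgf4 was higher and Dusp6 lower with GFP in both systems, and Spry2 was higher with GFP in totalx2 alone among the calls. Sequences are from RefSeq on build GRCm38.p6, 5′ to 3′ on the strand of the gene, and end 1 base before the start. RefSeq windows were matched for 6 of the 10 members: Dusp6, Etv5, Fgf4, Fgfr2, Spred1 and Spry2. Capitals mark GGGCGG, the GC box of SP-family factors, and CCAAT, the box bound by NF-Y, on either strand.
Fgf4, chr7:144861136-144861385, plus strand: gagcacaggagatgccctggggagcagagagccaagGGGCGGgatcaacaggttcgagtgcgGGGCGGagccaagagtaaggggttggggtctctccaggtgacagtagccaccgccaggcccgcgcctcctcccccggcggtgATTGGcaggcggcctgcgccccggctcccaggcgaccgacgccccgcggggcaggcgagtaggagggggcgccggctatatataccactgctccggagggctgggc
Dusp6, chr10:99262981-99263230, plus strand: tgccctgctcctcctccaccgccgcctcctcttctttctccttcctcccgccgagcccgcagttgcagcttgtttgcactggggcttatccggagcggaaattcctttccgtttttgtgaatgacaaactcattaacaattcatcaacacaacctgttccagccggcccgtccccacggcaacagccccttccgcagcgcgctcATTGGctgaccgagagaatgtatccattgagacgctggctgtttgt
Spry2, chr14:105896820-105897069, minus strand: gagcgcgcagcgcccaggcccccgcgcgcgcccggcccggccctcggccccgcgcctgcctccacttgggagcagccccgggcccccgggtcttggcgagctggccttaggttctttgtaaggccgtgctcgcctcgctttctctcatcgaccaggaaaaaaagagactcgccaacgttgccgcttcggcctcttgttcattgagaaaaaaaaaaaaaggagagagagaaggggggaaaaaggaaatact
Fgf4 holds 2 GC boxes and 1 CCAAT box in this window, Dusp6 holds 1 CCAAT box, and Spry2 holds neither. In the 6 matched members GGGCGG was found in 3 (Etv5, Fgf4 and Spred1) and CCAAT in 3 (Dusp6, Etv5 and Fgf4), while 32.7% and 33.8% of 32851 RefSeq windows of 250 bases hold them. The letters CCGGAA of ETS factors, TGANTCA of AP-1 and TGACGTCA of CREB were found in 0 of the 6 members, against 12.0%, 6.75% and 1.55% of the windows searched. The 6 members supplied 7 windows, so counts of members stand beside shares of windows. Both strands were searched and no matches overlapped. These are letter matches and no binding was measured.

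Levels below are in CPM, each library's counts scaled to a common total with TMM factors, and come from counts over the whole gene span on the gene's strand, introns included. CPM is not per length, so levels are compared between groups and not between genes. On the authors' coordinates (mm10) Fgf4 was counted over chr7:144847367-144865243, 4.63 times the RefSeq span of 3860 bases. Fgfr1 spans chr8:25513654-25575718, Dusp4 chr8:34807297-34819894, Dusp6 chr10:99263231-99267488, Spry2 chr14:105891949-105896819, Spry4 chr18:38586268-38601268, Spred1 chr2:117121374-117182279, Etv4 chr11:101769742-101785371 and Etv5 chr16:22381309-22439719. Fgfr2 was counted over chr7:130162451-133123350, which is 2960900 bases against 104358 in RefSeq. This span contains 36 other gene names on the same strand, which share 27.7% of it, so reads from other transcripts inside it can enter the Fgfr2 count and its values are uncertain throughout.

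Libraries held 6540256 to 20783265 counts over 18838 to 21666 genes, and 1.753 to 12.18% of counts came from mitochondrially encoded genes. The library of wild-type iPSC clone 1 stood apart, with the 12.18% share and the lowest TMM factor, 0.7815, and naivex2 day 10 GFP- replicate 1 had 8.993%. No 2 libraries of a group agreed within sampling noise (the lowest chi-square per degree of freedom over 42 pairs was 3.003). The 10 pluripotency markers summed to 2.245 to 4.163 CPM in MEF, with Dppa4 at 0, and to 4333 to 5277 CPM in the wild-type and 4476 to 4700 CPM in the naivex2 iPSC. The 10 fibroblast markers summed to 22750 to 23600 CPM in MEF and remained detectable in every other group, 1330 to 3568 CPM in naivex2 iPSC and 1735 to 2630 CPM in the clones of both genotypes. In these bulk libraries fewer cells of a type and less RNA per cell cannot be told apart. Tet1 read 1301, 822 and 873 CPM in the wild-type and 54.3, 58.5 and 57.2 CPM in the knockout clones, a lower level in each of the 3 clones labelled knockout, although reads outside the disrupted part are counted too.

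The pattern over the series had 3 parts. Fgf4 was higher in GFP+ than in GFP- cells of the same day in all 4 comparisons that the 2 reporter systems allow, while Fgfr1, Dusp4 and Dusp6 were lower in all 4. From the latest GFP+ cells to iPSC 6 members, Fgfr2, Dusp6, Spry2, Spry4, Spred1 and Etv4, were higher in both tables, and 0 were lower in both. The Fgfr2 call in the second table was lost without wild-type clone 1. Shares of all genes called are given below for each comparison. The share called the same way in several comparisons at once was not computed, so these joint counts have no background beside them. Between knockout and wild-type clones Spry4 and Spry2 were higher in every alternative setting tried. Calls are at an adjusted p under 0.05 in edgeR's quasi-likelihood test with Benjamini-Hochberg adjustment over all genes tested. A log2 fold change is given with its standard error.

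Counts of called members are read against the share of all genes called. In naivex2 GFP+ against GFP- cells, 7 of 10 members were called at day 12 (1 higher, 6 lower) and 9 at day 14 (3 higher, 6 lower), where 16.6% (9.93% higher, 6.69% lower) and 31.3% (14.4% higher, 16.9% lower) of all genes tested were called. In totalx2 5 were called at day 10 (2 higher, 3 lower) and 8 at day 12 (2 higher, 6 lower), against 22.4% (13% higher, 9.36% lower) and 61.6% (31.2% higher, 30.4% lower) of all genes. The median log2 fold change of the members in these 4 comparisons was -0.41, -0.46, -0.37 and -0.82, and that of all genes was 0.00, -0.02, 0.04 and 0.05. Both systems thus had more members lower than higher with GFP, although at day 12 in totalx2 most genes of the table differed too. Fibroblast markers moved with GFP as well. Their sum was 3260 to 5347 CPM in GFP- against 1671 to 2745 CPM in GFP+ naivex2 cells at day 14, and 9310 to 12590 against 2208 to 2656 CPM in totalx2 cells at day 12. In naivex2 cells at day 12 the sums overlapped (916.0 to 1444 CPM in GFP-, 580.6 to 1118 CPM in GFP+), as did those of totalx2 cells at day 10 (3034 to 8545 and 4403 to 11720 CPM). The 8 primitive endoderm markers summed to 331.7 to 422.5 CPM in GFP- and 238.9 to 282.0 CPM in GFP+ naivex2 cells at day 12, and to 560.2 to 731.9 and 238.3 to 292.3 CPM at day 14. In MEF they summed to 3405 to 3529 CPM with Sox17 at 0, so a high sum is not particular to primitive endoderm here. In totalx2 these sums overlapped at day 10 (894.2 to 1264 and 697.1 to 1075 CPM) and not at day 12 (2125 to 2368 and 530.1 to 596.9 CPM). The 8 trophectoderm markers were lower with GFP in naivex2, 223.9 to 243.1 against 116.6 to 124.8 CPM at day 12 (Cdx2 and Hand1 at 0 in the GFP+ cells) and 353.7 to 380.7 against 115.5 to 141.2 CPM at day 14. In totalx2 they went the other way, 66.89 to 78.67 CPM in GFP- and 116.1 to 138.2 CPM in GFP+ cells at day 10 (Cdx2 at 0 in the latter), and 72.79 to 99.44 and 154.4 to 220.0 CPM at day 12. Among the primitive endoderm markers Sox17 and Foxa2 were at 0 in naivex2 day 12 GFP- and totalx2 day 10 GFP- cells, and Sox17 was at 0 in totalx2 day 10 GFP+ and day 12 GFP- cells. The part of cells with any of these markers in the differences was not tested.

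**Figure D1:**
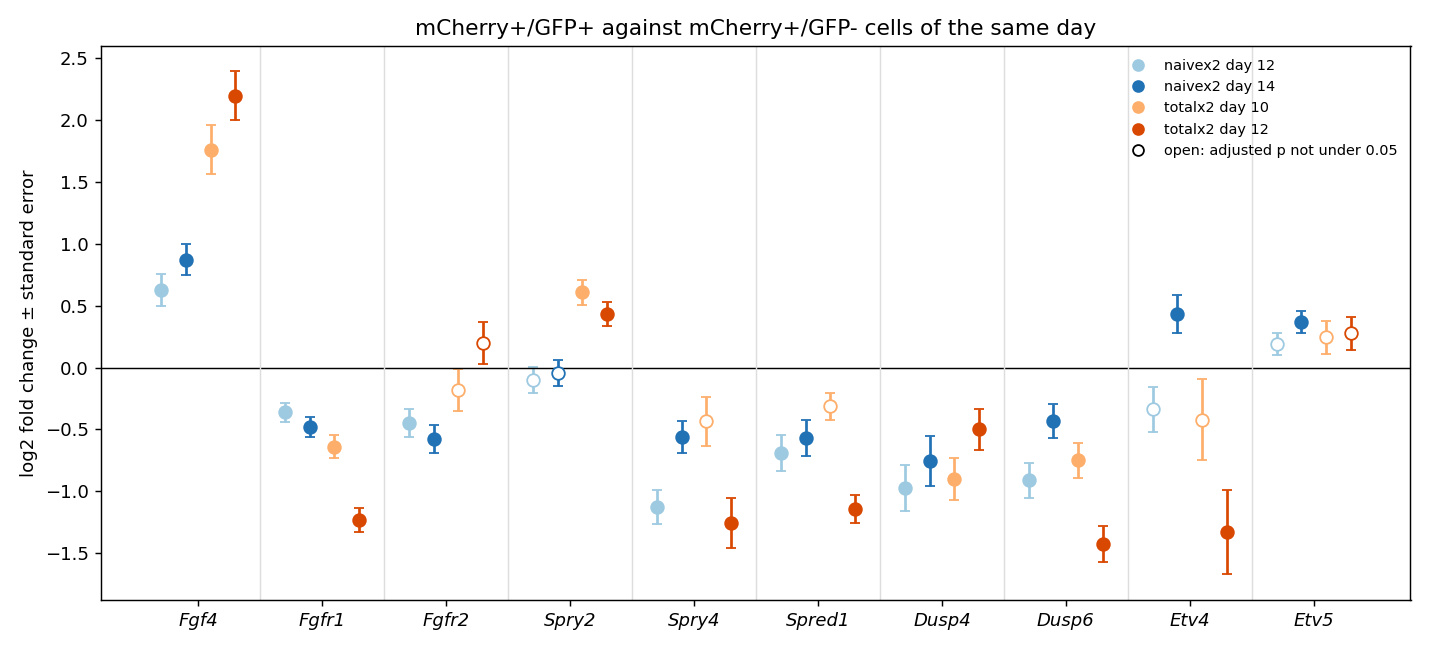
Difference between mCherry+/GFP+ and mCherry+/GFP- cells of the same day, as log2 fold change with its standard error (vertical axis), for each of the 10 genes (horizontal axis). Blue points are naivex2 at days 12 and 14 and orange points totalx2 at days 10 and 12, and filled points passed an adjusted p under 0.05. Fgf4 lies above 0 in all 4 comparisons, and Fgfr1, Dusp4 and Dusp6 lie below 0 in all 4.

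Fgf4, the main FGF ligand of the early embryo's pluripotent cells, gave raw counts of 2, 1 and 1 in the 3 MEF libraries and 171, 252 and 285 CPM in naivex2 day 10 GFP- cells. Over the pooled libraries the day 10 cells held 2750 times the MEF level, with a 95% exact counting interval of 1070 to 10100 from 4 MEF counts. It read 241, 246 and 266 CPM in GFP- cells at day 12 and 167, 183 and 207 CPM at day 14. The call of a fall between these days (log2 fold change -0.44 ± 0.13, adjusted p = 0.0115) was lost without day 14 GFP- replicate 1 (-0.38, adjusted p = 0.0518), with adjusted p-values of 1.78e-04 to 0.0518 over all alternatives.

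Fgf4 was at its highest in the GFP+ cells of the naivex2 lines. These held 397, 343 and 421 CPM at day 12 and 332, 336 and 352 CPM at day 14, with no overlap with the GFP- cells of either day. The log2 fold change of GFP+ against GFP- was 0.62 ± 0.13, adjusted p = 0.0018, at day 12 and 0.87 ± 0.13, adjusted p = 3.14e-05, at day 14. The iPSC lines held 287, 287 and 245 CPM, below each day 14 GFP+ library. That difference of -0.32 ± 0.13 missed the threshold (adjusted p = 0.0503). It passed in 7 of 14 alternatives (0.00278 to 0.151), among them the fits with the line as a block (-0.31, adjusted p = 0.04) and without iPSC replicate 1 (-0.37, adjusted p = 0.0486).

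In totalx2 cells Fgf4 began low and separated by GFP. Day 8 GFP- cells held 23.2, 15.9 and 36.2 CPM, day 10 GFP- cells 70.3, 56.5 and 65.5 CPM and day 12 GFP- cells 76.2, 66.2 and 75.7 CPM. GFP+ cells held 231, 190.5 and 230.2 CPM at day 10 and 338, 311 and 352 CPM at day 12. The GFP+ level was 3.39 times that of GFP- cells at day 10 (log2 fold change 1.76 ± 0.20, adjusted p = 2.08e-06) and 4.59 times at day 12 (2.20 ± 0.20, adjusted p = 2.71e-08). From day 8 to day 10 the GFP- cells themselves rose by 1.35 ± 0.20, adjusted p = 2.1e-04. The rise from day 10 to day 12 within GFP+ cells (0.62 ± 0.19, adjusted p = 0.0229) was called in fewer settings: it was lost without day 10 GFP+ replicate 2 (0.53, adjusted p = 0.121) or replicate 3, without day 12 GFP+ replicate 1 or 3, with library totals and with no low-count filter (adjusted p of 0.00142 to 0.121 over all alternatives). Wild-type clones held 211, 311 and 334 CPM and overlapped the day 12 GFP+ cells.

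**Figure D2:**
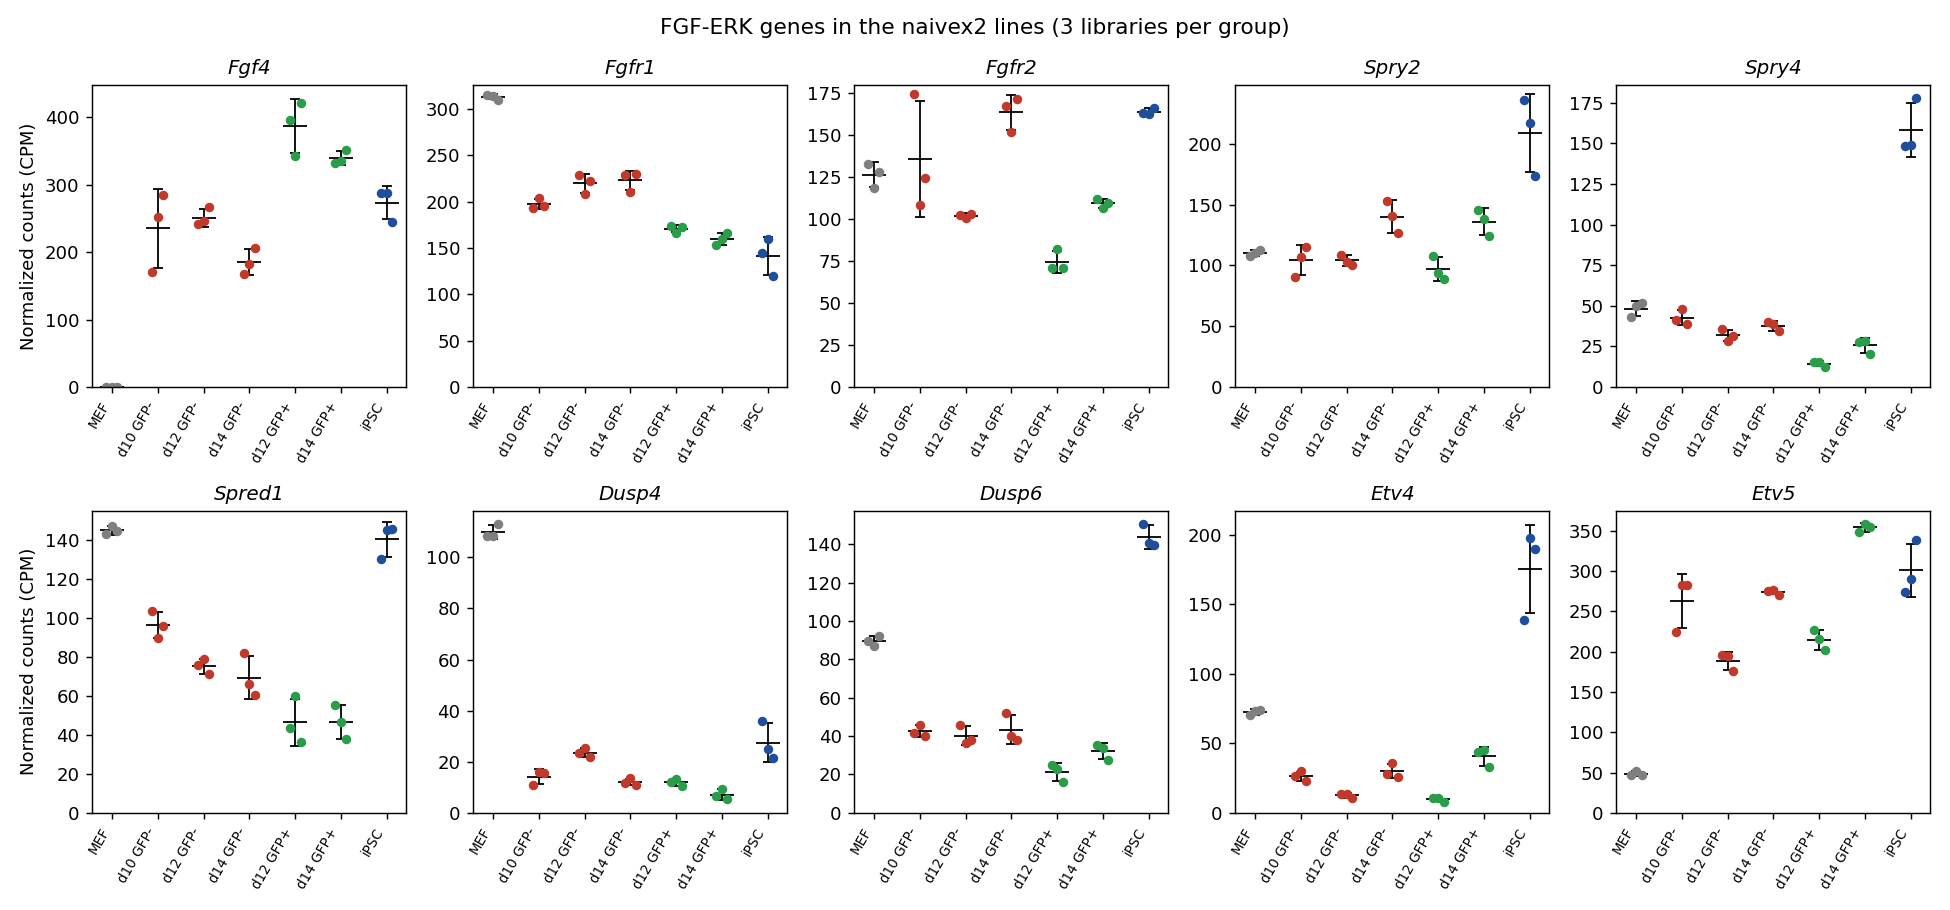
CPM (vertical axes, each from 0) of the 10 genes in the 7 groups of the first table (horizontal axes). Points are libraries, grey for MEF, red for GFP-, green for GFP+ and blue for iPSC, and bars give mean and SD of 3 libraries. Fgf4 is near 0 in MEF and highest in GFP+ cells, while 6 genes (Fgfr2, Spry2, Spry4, Spred1, Dusp6 and Etv4) have their lowest mean in day 12 GFP+ cells. For Spry2, Spred1 and Etv4 these libraries overlap those of the group with the next lowest mean. The share of all genes with their lowest mean there was not computed.

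Fgfr1, the receptor most used by naive pluripotent cells, fell in steps. MEF held 316, 314 and 310.0 CPM and naivex2 day 10 GFP- cells 194, 204 and 195 CPM, a log2 fold change of -0.67 ± 0.08, adjusted p = 1.22e-07. GFP- cells read 229, 208 and 222 CPM at day 12 and 229, 211 and 229 CPM at day 14. GFP+ cells lay below them, at 174, 166 and 173 CPM at day 12 (log2 fold change -0.36 ± 0.08, adjusted p = 0.00253) and 154, 159 and 166 CPM at day 14 (-0.48 ± 0.08, adjusted p = 8.47e-05). Fgfr1 thus separated the GFP fractions with no overlap at either day.

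In totalx2 GFP- cells Fgfr1 read 414, 443 and 466 CPM at day 8, 455, 462 and 489 CPM at day 10 and 451, 504 and 537 CPM at day 12. No change between neighbouring days of these cells was called. The GFP+ cells held 288, 314 and 299 CPM at day 10 and 203, 218 and 214 CPM at day 12, log2 fold changes of -0.64 ± 0.09, adjusted p = 3.74e-05, and -1.23 ± 0.09, adjusted p = 2.23e-09 against the GFP- cells of the day. The groups did not overlap at either day. Wild-type iPSC were lower still, 110.4, 145 and 144 CPM, -0.66 ± 0.09 against day 12 GFP+ cells (adjusted p = 1.08e-05). In naivex2 iPSC (144, 159.8 and 119.6 CPM) the difference from day 14 GFP+ cells was -0.18 ± 0.08 and missed the threshold (adjusted p = 0.0707), passing it with library totals and without iPSC replicate 2 (-0.28, adjusted p = 0.00564, and 0.00564 to 0.313 over all alternatives).

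Fgfr2, a receptor of the trophoblast and primitive endoderm in the embryo, is given with the caution on its counted span. In naivex2 cells it read 103, 100.3 and 103 CPM in GFP- and 70.7, 82.1 and 71.1 CPM in GFP+ cells at day 12 (log2 fold change -0.45 ± 0.12, adjusted p = 0.00903). At day 14 these were 167, 152 and 171 and 112, 106 and 109.5 CPM (-0.58 ± 0.11, adjusted p = 5.19e-04), so both fractions rose between the days and GFP+ cells remained lower. The trophectoderm and primitive endoderm sums given above were lower in these GFP+ cells at both days, and their part in Fgfr2 was not tested. In totalx2 cells Fgfr2 read 131, 146 and 127 CPM in GFP- and 116, 126 and 113 CPM in GFP+ cells at day 10, and 124, 105 and 107 and 138, 129 and 119 CPM at day 12. No difference by GFP was called there: it was -0.18 ± 0.17 at day 10 (adjusted p = 0.498) and 0.20 ± 0.17 at day 12 (adjusted p = 0.322). The trophectoderm sums there were higher with GFP at both days. The primitive endoderm sums overlapped at day 10 and were lower with GFP at day 12 (2125 to 2368 in GFP-, 530.1 to 596.9 CPM in GFP+). The part of either in Fgfr2 was not tested there. Day 10 GFP- replicate 1 of naivex2 read 174 CPM against 108 and 124 CPM in the other 2. Without it the called fall from day 10 to day 12 was lost (-0.17, adjusted p = 0.118), as it was without day 12 GFP- replicate 1 or 2 and in a fit of these groups alone (adjusted p of 0.00139 to 0.131 over all alternatives).

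Spry4, an ERK-induced inhibitor of RAS activation, had one of the widest ranges among the feedback genes. MEF held 43.1, 49.8 and 51.9 CPM, and naivex2 GFP- cells 35.7, 28.6 and 31.3 CPM at day 12. Day 12 GFP+ cells held 15.2, 15.7 and 12.5 CPM, the lowest 3 libraries of the table. Their level was 2.2 times lower than in GFP- cells, a log2 fold change of -1.13 ± 0.14, adjusted p = 5.4e-06. By day 14 the GFP+ cells were at 27.8, 28.6 and 20.4 CPM, higher than at day 12 by 0.82 ± 0.14, adjusted p = 1.42e-04, and still below GFP- cells at 40.2, 38.8 and 34.3 CPM (-0.56 ± 0.13, adjusted p = 0.00208). The iPSC lines then held 148, 149 and 178 CPM, 6.19 times the day 14 GFP+ level (2.63 ± 0.13, adjusted p = 4.77e-12).

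In totalx2 cells Spry4 first rose in GFP- cells, from 56.5, 39.3 and 74.2 CPM at day 8 to 136, 124 and 126 CPM at day 10 (log2 fold change 1.18 ± 0.20, adjusted p = 4.73e-04). GFP+ cells held 90.1, 102 and 92.8 CPM at day 10, and the difference from GFP- cells was not called (-0.44 ± 0.20, adjusted p = 0.125, and 0.00526 to 0.259 over all alternatives, called in a fit of those groups alone). At day 12 GFP- cells held 121, 131 and 163 and GFP+ cells 42.9, 55.7 and 74.5 CPM, a difference of -1.26 ± 0.20, adjusted p = 2.41e-05. The fall within GFP+ cells from day 10 to day 12 (-0.72 ± 0.20, adjusted p = 0.0131) was lost without day 12 GFP+ replicate 1 (-0.54, adjusted p = 0.0826), without day 10 GFP+ replicate 2 (-0.66, adjusted p = 0.0615) and with no low-count filter (0.00504 to 0.0826 over all alternatives). Wild-type iPSC held 91.8, 125 and 118 CPM, above day 12 GFP+ cells by 0.95 ± 0.20, adjusted p = 6.08e-04.

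Spry2, a relative of Spry4, went with the day in naivex2 cells and with GFP in totalx2 cells. In naivex2 it was at 104 ± 4.33 and 97 ± 9.89 CPM (mean ± SD, 3 libraries each) at day 12 and 140.1 ± 13.3 and 136 ± 10.9 CPM at day 14 in GFP- and GFP+ cells. The log2 differences by GFP were not called, at -0.10 ± 0.11 and -0.04 ± 0.11 (adjusted p = 0.597 and 0.805). Both fractions were higher at day 14 than at day 12, by 0.43 ± 0.11 in GFP- and 0.49 ± 0.11 in GFP+ cells. In totalx2 cells Spry2 was higher with GFP instead. It read 75.2, 74.9 and 67.5 CPM in GFP- and 106, 112 and 114 CPM in GFP+ cells at day 10 (0.61 ± 0.10, adjusted p = 1.5e-04), and 100.2, 81 and 75.6 and 113, 117 and 118 CPM at day 12 (0.43 ± 0.10, adjusted p = 8.78e-04), with no overlap at either day. The difference between the 2 systems was not tested. The iPSC stood above every sorted library, at 236, 217 and 174 CPM in naivex2 and 151, 177 and 195 CPM in the wild-type clones, above the latest GFP+ cells by 0.62 ± 0.11 and 0.59 ± 0.10 (adjusted p = 7.7e-05 and 6.95e-05).

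Spred1, a Sprouty-related protein that brings neurofibromin to RAS, was lower with GFP at 3 of the 4 time points. In naivex2 cells it read 75.9, 78.7 and 71.1 CPM in GFP- and 43.4, 59.7 and 36.2 CPM in GFP+ cells at day 12 (log2 fold change -0.69 ± 0.15, adjusted p = 0.00232), and 81.7, 65.9 and 60.3 and 55.5, 46.6 and 38 CPM at day 14 (-0.57 ± 0.15, adjusted p = 0.00521). In totalx2 cells it read 189, 202 and 228 CPM in GFP- and 88.9, 105 and 86.7 CPM in GFP+ cells at day 12 (-1.14 ± 0.11, adjusted p = 8.59e-08). The day 10 difference there was -0.31 ± 0.11 with an adjusted p of 0.0511, and passed in 8 of its 14 alternatives (0.0193 to 0.112), among them the fit without day 10 GFP- replicate 1 (-0.40, adjusted p = 0.0245) and that without day 10 GFP+ replicate 2. The naivex2 iPSC, at 129.9, 145 and 146 CPM, were above all sorted GFP+ cells of the lines (1.59 ± 0.15, adjusted p = 4.71e-08 against day 14) and overlapped the MEF, at 143, 147 and 144 CPM. Wild-type clones, at 143, 117 and 145 CPM, were above totalx2 day 12 GFP+ cells by 0.53 ± 0.11, adjusted p = 7.24e-04.

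**Figure D3:**
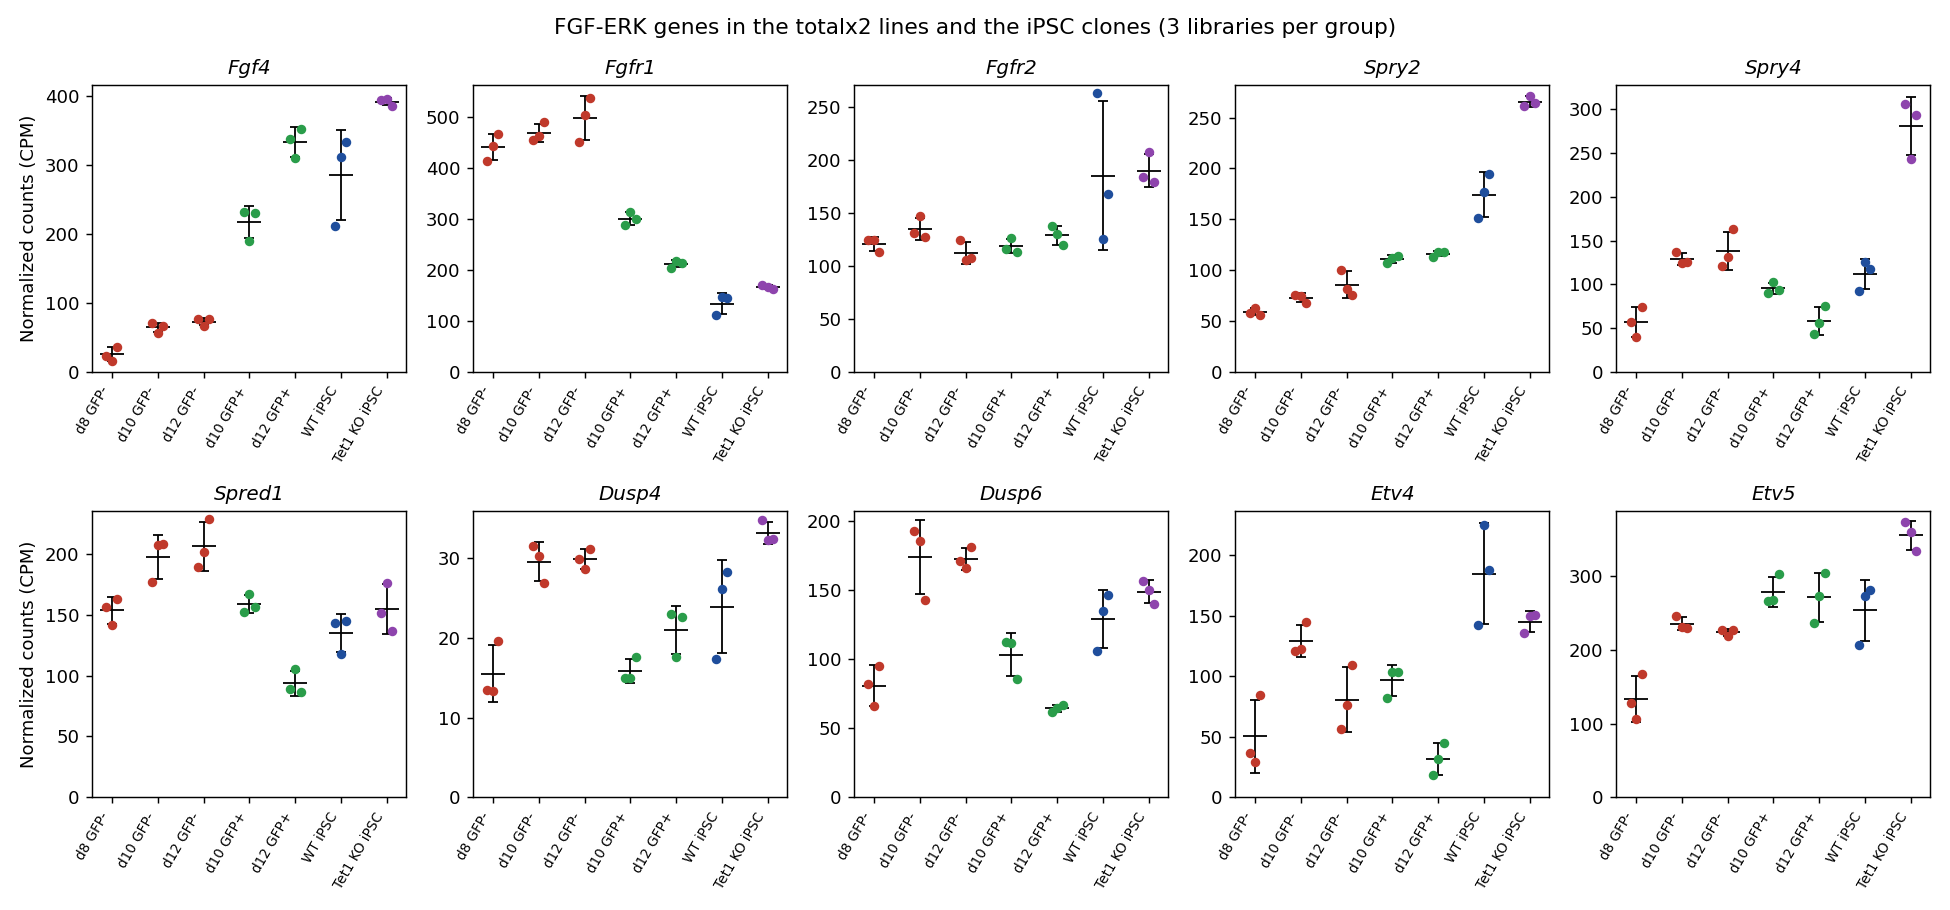
CPM (vertical axes, each from 0) of the 10 genes in the 7 groups of the second table (horizontal axes). Points are libraries, red for GFP- and green for GFP+ totalx2 cells, blue for wild-type and purple for Tet1 knockout iPSC clones, and bars give mean and SD of 3 libraries. Dusp6, Spred1 and Etv4 have their lowest mean in day 12 GFP+ cells, and Spry2 and Spry4 their highest in the knockout clones. For Dusp6 and Etv4 the day 12 GFP+ libraries overlap those of day 8 GFP- cells.

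Dusp6, a cytoplasmic phosphatase specific for ERK, had its lowest mean in the day 12 GFP+ cells of both systems. Naivex2 cells at day 12 held 45.9, 36.4 and 38.2 CPM in the GFP- and 25, 22.7 and 15.9 CPM in the GFP+ fraction, a log2 fold change of -0.91 ± 0.14, adjusted p = 1.01e-04. At day 14 the fractions read 52.1, 40 and 38.1 and 35.2, 33.8 and 27.5 CPM, and the call (-0.43 ± 0.14, adjusted p = 0.0195) was lost without day 14 GFP- replicate 1 (-0.27, adjusted p = 0.173) or GFP+ replicate 3 (-0.32, adjusted p = 0.129, and 0.00612 to 0.173 over all alternatives). Both fractions were below the MEF, 89.7, 87.2 and 91.9 CPM. The iPSC held 151, 141 and 139.6 CPM, 4.47 times the day 14 GFP+ level (2.16 ± 0.14, adjusted p = 1.53e-10) and more than every MEF library.

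Dusp6 in totalx2 GFP- cells rose from 81.7, 65.9 and 95.1 CPM at day 8 to 192, 186 and 143 CPM at day 10 (log2 fold change 1.10 ± 0.14, adjusted p = 5.88e-05) and read 171, 166 and 181 CPM at day 12. GFP+ cells held 113, 112 and 85.4 CPM at day 10 (-0.75 ± 0.14, adjusted p = 5.88e-04) and 61.6, 64.4 and 67 CPM at day 12 (-1.42 ± 0.14, adjusted p = 1e-07). No GFP+ library reached the lowest GFP- library of its day. Wild-type iPSC stood higher again, at 106, 135 and 146 CPM (1.01 ± 0.14, adjusted p = 1.17e-05).

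Dusp4, a nuclear phosphatase for ERK and other kinases, was a fibroblast transcript first. MEF held 108, 108 and 113 CPM and naivex2 day 10 GFP- cells 10.8, 16 and 15.5 CPM, a log2 fold change of -2.95 ± 0.18, adjusted p = 6.29e-12. GFP- cells read 23.6 ± 1.72 CPM at day 12 and 12.1 ± 1.26 at day 14 (mean ± SD), and GFP+ cells 12 ± 1.37 and 7.12 ± 2.11. The log2 difference by GFP was -0.97 ± 0.19, adjusted p = 8.93e-04 at day 12. At day 14 it was -0.76 ± 0.20, adjusted p = 0.00683, and lost without GFP+ replicate 3 (-0.57, adjusted p = 0.0577, and 0.00157 to 0.0577 over all alternatives). The fall within GFP+ cells between the days (-0.74 ± 0.21, adjusted p = 0.0095) was lost without the same library (-0.57, adjusted p = 0.0643, and 0.00191 to 0.0643). In totalx2 cells GFP- and GFP+ read 31.6, 30.3 and 26.9 and 15, 15 and 17.6 CPM at day 10 (-0.90 ± 0.17, adjusted p = 5.64e-04), and 30, 28.7 and 31.2 and 23, 17.6 and 22.6 CPM at day 12 (-0.50 ± 0.16, adjusted p = 0.0126). The last was lost without GFP+ replicate 2 (-0.39, adjusted p = 0.0712, and 0.0013 to 0.0712). Dusp4 rose in naivex2 iPSC to 35.9, 25.1 and 21.5 CPM (1.93 ± 0.20, adjusted p = 1.32e-07 against day 14 GFP+ cells), which was still below every MEF library.

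The 2 ETS factors went opposite ways from MEF to naivex2 day 10 cells, but not between the later days of these cells. From day 10 to 12 both fell in GFP- cells (Etv4 -1.07 ± 0.17, Etv5 -0.48 ± 0.09). From day 12 to 14 both rose, in GFP- cells (1.26 ± 0.17 and 0.54 ± 0.09) and in GFP+ cells (2.03 ± 0.17 and 0.72 ± 0.09). Etv5, a transcription factor induced by FGF signalling and needed for timely exit from naive pluripotency, rose early and stayed high. MEF held 47.2, 52 and 46.7 CPM and naivex2 day 10 GFP- cells 225, 282 and 283 CPM, a log2 fold change of 2.44 ± 0.09, adjusted p = 2.08e-15. GFP- cells then held 195, 194 and 176 CPM at day 12 and 276, 277 and 271 CPM at day 14, and GFP+ cells 227, 215 and 202 and 349, 359 and 355 CPM. The GFP difference was called at day 14 (0.37 ± 0.09, adjusted p = 0.00272) and not at day 12 (0.19 ± 0.09, adjusted p = 0.154, and 0.0405 to 0.458 over all alternatives, called in a fit of those groups alone). Whether the days differ was tested: the difference of 0.18 ± 0.12 was not called (adjusted p = 0.652).

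Etv4, its close relative, went the other way out of the fibroblast state. MEF held 70.2, 73.3 and 74.2 CPM and day 10 GFP- cells 26.2, 29.7 and 22.9 CPM (-1.46 ± 0.16, adjusted p = 3.71e-08), and at day 12 both fractions were lower, 13.6, 13.8 and 10.3 CPM in GFP- and 10.9, 10.6 and 8.06 CPM in GFP+ cells. At day 14 GFP- cells read 28.2, 35.6 and 25.9 and GFP+ cells 43.8, 44.9 and 33 CPM. The GFP- rise between the days was 1.26 ± 0.17, adjusted p = 8.95e-06. A call for higher Etv4 with GFP at day 14 (0.43 ± 0.15, adjusted p = 0.0381) was lost in 6 of 14 alternatives (0.0112 to 0.131): without day 14 GFP- replicate 1 (0.41, adjusted p = 0.108) or 3, without GFP+ replicate 1 or 2 (0.37, adjusted p = 0.131), with library totals and with no low-count filter. In iPSC Etv4 read 139, 198 and 189 CPM, 4.33 times the day 14 GFP+ level (2.11 ± 0.15, adjusted p = 1.63e-09).

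Etv4 varied between lines in totalx2. Day 8 GFP- replicates held 36.9, 29.6 and 84.8 CPM and those of day 10 held 121, 123 and 145 CPM (1.36 ± 0.34, adjusted p = 0.00803). At day 12 GFP- cells held 56.8, 76.3 and 109 CPM and GFP+ cells 18.6, 31.8 and 45 CPM, so replicate 3 was the highest library in each of these 4 groups. The day 10 GFP+ cells held 82.1, 104 and 104 CPM. The GFP difference at day 12 was -1.33 ± 0.34, adjusted p = 0.00258. Between days 10 and 12 the GFP- cells differed by -0.69 ± 0.33, not called (adjusted p = 0.128), but called with the line as a block (-0.74, adjusted p = 0.0142) and in a fit of the 2 groups (0.0142 to 0.387 over all alternatives). Wild-type clones held 142, 225 and 188 CPM, above day 12 GFP+ cells by 2.53 ± 0.35, adjusted p = 1.19e-05.

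Etv5 in totalx2 GFP- cells read 128, 106 and 168 CPM at day 8 and 246, 232 and 229 CPM at day 10 (0.82 ± 0.14, adjusted p = 4.41e-04). With GFP it read 266, 268 and 303 CPM at day 10, a difference of 0.24 ± 0.14, adjusted p = 0.222 from GFP- cells. At day 12 GFP- cells held 228, 218 and 227 CPM and the difference was 0.28 ± 0.14, adjusted p = 0.0831, called in a fit of those groups alone (0.0218 to 0.401 over all alternatives). Etv5 read 237, 274 and 304 CPM in the day 12 GFP+ cells and 207, 274 and 282 CPM in wild-type iPSC, a difference of -0.10 ± 0.14, adjusted p = 0.578.

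Days were compared within a fraction. From MEF to naivex2 day 10 GFP- cells 7 of 10 members were called (2 higher, Fgf4 and Etv5, and 5 lower, Fgfr1, Dusp4, Dusp6, Spred1 and Etv4), where 76.4% (38.8% higher, 37.6% lower) of all genes were called, so a call is no mark of these genes there. From day 10 to 12 GFP- cells had 5 members called against 20.2% (10.1% higher, 10.1% lower) of all genes, Dusp4 higher (0.74 ± 0.18) and Etv4, Etv5, Fgfr2 and Spry4 lower. The Spry4 call (-0.43 ± 0.13, adjusted p = 0.0206) was lost without day 10 GFP- replicate 2 (-0.33, adjusted p = 0.103), without day 12 GFP- replicate 2 (-0.35, adjusted p = 0.111) or 3, with library totals and in a fit of the 2 groups (0.0106 to 0.111 over all alternatives). Without day 12 GFP- replicate 2 the count was 3. From day 12 to 14 6 were called in GFP- cells against 36.8% (20.6% higher, 16.2% lower) of all genes, and 7 in GFP+ cells against 30.5% (14.5% higher, 16% lower). Fgfr2, Spry2, Etv4 and Etv5 rose and Dusp4 fell in both fractions over these days. The fibroblast sums were higher at day 14 without overlap, 3260 to 5347 against 916.0 to 1444 CPM in GFP- and 1671 to 2745 against 580.6 to 1118 CPM in GFP+ cells, and their part was not tested. Spry4 and Dusp6 rose with a call in GFP+ cells, by 0.82 ± 0.14 and 0.59 ± 0.14, and read 0.25 ± 0.13 and 0.12 ± 0.13 in GFP- cells (adjusted p = 0.129 and 0.542).

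In totalx2 GFP- cells 8 of 10 members rose from day 8 to day 10 and 0 fell, where 20.7% (10% higher, 10.7% lower) of all genes were called. The 8 were Fgf4, Dusp4, Dusp6, Spry2, Spry4, Spred1, Etv4 and Etv5, with a median over the 10 members of 0.88 against -0.01 for all genes. The smallest 2 of these rises depended on single libraries. Spry2 (0.30 ± 0.10, adjusted p = 0.0389) was lost without day 10 GFP- replicate 1 (0.28, adjusted p = 0.136) or 2, without any 1 of the day 8 replicates, with library totals and with no low-count filter (0.00706 to 0.136 over all alternatives). Spred1 (0.36 ± 0.11, adjusted p = 0.0279) was lost without day 10 GFP- replicate 2 or 3 or day 8 replicate 2 (0.32, adjusted p = 0.106, and 0.0082 to 0.106). The summed fibroblast markers moved at the same time, from 13410 to 20840 CPM at day 8 to 3034 to 8545 CPM at day 10, and their part was not tested. From day 10 to day 12 edgeR called 0 members in these cells, with 1 at an unadjusted p under 0.05 and 0 called by DESeq2, against 28.1% (16.1% higher, 12% lower) of all genes. Spry2 (0.24 ± 0.10, adjusted p = 0.0756) was called without day 12 GFP- replicate 3 (0.34, adjusted p = 0.0387, and 0.0193 to 0.454 over all alternatives). GFP+ cells over the same days had 6 called against 25.1% (12.2% higher, 12.9% lower): Fgf4 higher, and Fgfr1, Dusp6, Spry4, Spred1 and Etv4 lower.

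Between days 10 and 12 the GFP difference in totalx2 changed for 4 of 10 members. It was more negative at day 12 for Fgfr1 (-0.59 ± 0.13, adjusted p = 0.00289), Spred1 (-0.83 ± 0.16, adjusted p = 0.00115), Dusp6 (-0.68 ± 0.20, adjusted p = 0.0173) and Spry4 (-0.82 ± 0.28, adjusted p = 0.0343), where 27.3% (10.6% higher, 16.7% lower) of all genes differed. Dusp6 was lost without day 10 GFP+ replicate 2 (-0.62, adjusted p = 0.0561, and 0.00667 to 0.0561 over all alternatives), and the count then was 2. Spry4 was lost in 8 of 20 alternatives (0.0108 to 0.112), with its smallest value without day 12 GFP+ replicate 1 (-0.65, adjusted p = 0.0973). The others were the fits without day 10 GFP- replicate 2 or 3, day 12 GFP- replicate 3, day 10 GFP+ replicate 2 or 3 or day 12 GFP+ replicate 2, and that with no low-count filter. Etv4 (-0.91 ± 0.47, adjusted p = 0.167) passed with the line as a block (-0.94, adjusted p = 0.03, and 0.03 to 0.385). In naivex2 cells edgeR called 0 members for the difference between days 12 and 14, against 1.54% (0.688% higher, 0.855% lower) of all genes, with 3 at an unadjusted p under 0.05 and 1 called by DESeq2. There Etv4 (0.78 ± 0.24, adjusted p = 0.132) passed with the line as a block (0.78, adjusted p = 0.0462) and in DESeq2 (0.82, adjusted p = 0.0387), with 0.0387 to 0.292 over all alternatives. Spry4 (0.57 ± 0.19, adjusted p = 0.159) passed without day 14 GFP+ replicate 3 (0.73, adjusted p = 0.0489, and 0.0489 to 0.344).

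Dusp6, Spry2, Spry4, Spred1, Etv4 and Fgfr2 were higher in iPSC than in the latest GFP+ cells of both tables, and Dusp4 in naivex2 alone among the calls. In naivex2 8 of 10 members were called (7 higher, 1 lower), and in the second table there were 7 (6 higher, 1 lower), against 46.8% (24.3% higher, 22.5% lower) and 51.1% (25% higher, 26% lower) of all genes. The medians over the members were 1.10 and 0.53, and over all genes 0.02 and -0.01. The member lower in naivex2 iPSC was Etv5 (-0.24 ± 0.09, adjusted p = 0.0311), lost without iPSC replicate 1 (-0.19, adjusted p = 0.112) or 2 and without day 14 GFP+ replicate 2 or 3 (0.0035 to 0.112 over all alternatives). Fgfr2 in the wild-type clones read 262, 125 and 167 CPM, and its call (0.52 ± 0.17, adjusted p = 0.0151) was lost without clone 1 (0.20, adjusted p = 0.128, and 1.82e-04 to 0.137). Without that clone Dusp4 was called (0.38, adjusted p = 0.0327, and 0.0327 to 0.935), while its value over the 3 clones was 0.19 ± 0.17 (adjusted p = 0.344). The totalx2 cells and the wild-type clones also differ in strain and reporter alleles, which cannot be told apart from the step to iPSC in this table, whereas the naivex2 iPSC share the lines of the sorted cells. Marker sums moved with this step too. Between day 14 GFP+ cells and naivex2 iPSC the fibroblast sums overlapped (1671 to 2745 and 1330 to 3568 CPM), as did those of the 8 primitive endoderm markers (238.3 to 292.3 and 236.3 to 405.2 CPM), and the pluripotency sums did not (5296 to 5625 and 4476 to 4700 CPM). In the second table the day 12 GFP+ cells and wild-type iPSC did not overlap in the sums of fibroblast (2208 to 2656 and 1735 to 2113 CPM), primitive endoderm (530.1 to 596.9 and 200.8 to 284.7 CPM), pluripotency (3987 to 4134 and 4333 to 5277 CPM) or trophectoderm markers (154.4 to 220.0 and 124.8 to 142.4 CPM). The part of cells with any of these markers in the differences was not tested.

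**Figure D4:**
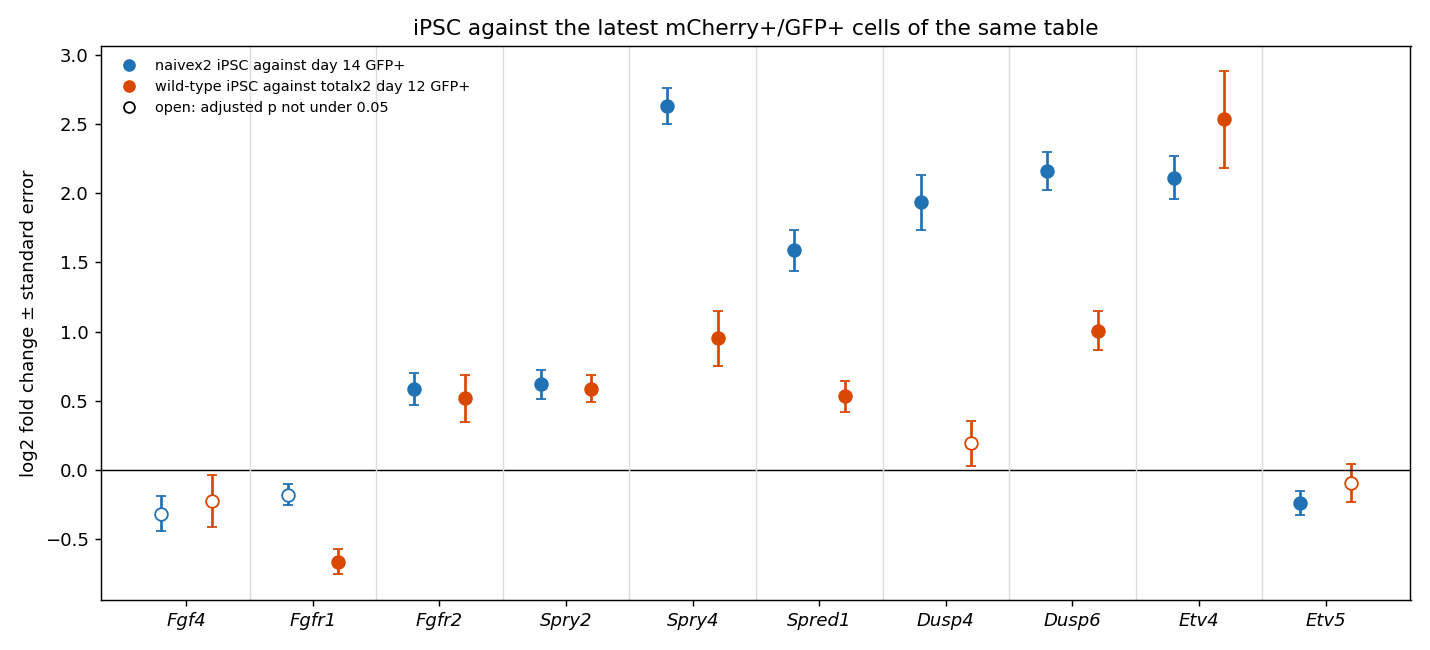
Difference between iPSC and the latest mCherry+/GFP+ cells of the same table, as log2 fold change with its standard error (vertical axis), for the 10 genes (horizontal axis). Blue points are naivex2 iPSC against day 14 GFP+ cells, orange points wild-type iPSC against totalx2 day 12 GFP+ cells, and filled points passed an adjusted p under 0.05. Dusp6, Spry2, Spry4, Spred1, Etv4 and Fgfr2 lie above 0 in both, and Fgf4 lies below 0 with open points.

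Against MEF the naivex2 iPSC had 9 members called (7 higher, 2 lower), with 77.3% (37.9% higher, 39.4% lower) of all genes called. Fgf4 (3130 times by pooled counts, 95% exact counting interval 1220 to 11500), Etv5 (2.63 ± 0.09), Spry4 (1.72 ± 0.12), Etv4 (1.27 ± 0.15), Spry2 (0.92 ± 0.11), Dusp6 (0.68 ± 0.13) and Fgfr2 (0.37 ± 0.11) were higher. Fgfr1 (-1.15 ± 0.08) and Dusp4 (-2.00 ± 0.17) were lower, and Spred1 (-0.05 ± 0.14, adjusted p = 0.775) was not called. Scaling by library totals in place of TMM moved the median of all genes by 0.29 in this comparison, by 0.28 in day 10 cells against MEF and by -0.14 in wild-type iPSC against totalx2 day 12 GFP+ cells. No called member changed direction under it.

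Tet1 encodes a dioxygenase that oxidises 5-methylcytosine, and its loss was compared in iPSC clones. Spry4 held 306, 243 and 294 CPM in the 3 knockout and 91.8, 125 and 118 CPM in the 3 wild-type lines. Every knockout clone was above every wild-type clone, and the level was 2.52 times higher (log2 fold change 1.33 ± 0.20, adjusted p = 2.3e-04). Spry2 held 261, 271 and 265 against 151, 177 and 195 CPM (0.61 ± 0.10, adjusted p = 5.16e-04), again with no overlap. The share of all genes without overlap between the genotypes was not computed. The primitive endoderm markers summed to 308.6 to 357.9 CPM in the knockout and 200.8 to 284.7 CPM in the wild-type lines, and their part was not tested. Spry4 and Spry2 held their call in all 14 alternatives, with adjusted p-values of 8.36e-09 to 0.00956 for Spry4 and 1.23e-07 to 0.0464 for Spry2.

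4 of 10 members were called higher in the knockout and 0 lower, where 10.7% (4.78% higher, 5.87% lower) of all genes were called. The other 2 were Etv5, 373, 359.8 and 335 against 207, 274 and 282 CPM (0.48 ± 0.14, adjusted p = 0.0269), and Fgfr1, 170.1, 166 and 162 against 110.4, 145 and 144 CPM (0.31 ± 0.09, adjusted p = 0.0367). Both were lost without wild-type clone 1, the library with the high mitochondrial share (0.36, adjusted p = 0.0913 for Etv5 and 0.20, adjusted p = 0.0778 for Fgfr1). They were also lost without any 1 of the 3 knockout clones and in a fit of the 6 clones alone, and each of these fits called 2 members. The adjusted p ranged over 0.00853 to 0.134 for Etv5 and 0.00927 to 0.271 for Fgfr1 over all alternatives, and Fgfr1 was lost with library totals and with no low-count filter too. The labels give the clones as separate clonal lines and not which parent each came from.

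The other 6 members were not called in the knockout. Fgf4 read 395, 396 and 386 CPM in knockout and 211, 311 and 334 CPM in wild-type iPSC (0.46 ± 0.19, adjusted p = 0.13). Dusp4 read 34.8, 32.4 and 32.4 against 17.3, 26.2 and 28.3 CPM (0.46 ± 0.16, adjusted p = 0.0785), and passed without wild-type clone 3 (0.60, adjusted p = 0.042, and 0.042 to 0.264 over all alternatives). Both genes had every knockout clone above every wild-type clone. Wild-type clone 1, with the high mitochondrial share, was the lowest library for both. The share of all genes without overlap was not computed, so this adds nothing to the tests. Fgfr2 (0.04 ± 0.17) passed without clone 1 (0.38, adjusted p = 0.0246, and 0.0246 to 0.977). Dusp6 read 157, 150.2 and 140.1 against 106, 135 and 146 CPM (0.20 ± 0.14, adjusted p = 0.376), and with Spred1 (0.20 ± 0.11) and Etv4 (-0.35 ± 0.32) it overlapped between genotypes. Whether Spry4 and Dusp6 differ in their response to the knockout was not tested.

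**Figure D5:**
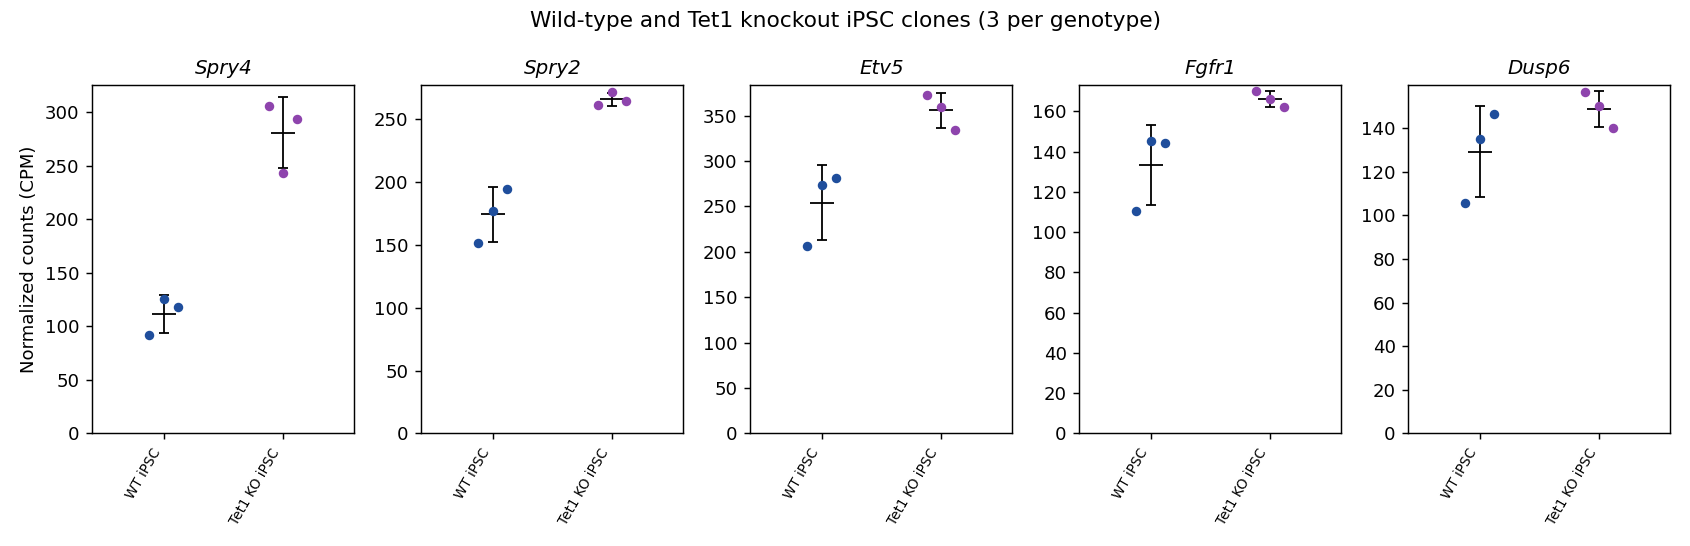
CPM (vertical axes, each from 0) of Spry4, Spry2, Etv5, Fgfr1 and Dusp6 in 3 wild-type (blue) and 3 Tet1 knockout (purple) iPSC clones (horizontal axes). Points are clones and bars give mean and SD. All knockout clones lie above all wild-type clones for Spry4, Spry2, Etv5 and Fgfr1, and the genotypes overlap for Dusp6. The share of all genes without overlap was not computed.

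A list of 79 other FGF-ERK genes gives the surroundings, 78 of them in the files, with 68 tested in the first and 66 in the second table. In GFP+ against GFP- cells, the list's 17 targets and effectors, such as immediate-early factors that ERK signalling is known to induce, gave 0 higher and 5 lower in naivex2 at day 12, 0 and 6 at day 14, 0 and 3 in totalx2 at day 10, and 1 and 14 at day 12. Of all genes tested 16.6% (9.93% higher, 6.69% lower), 31.3% (14.4% higher, 16.9% lower), 22.4% (13% higher, 9.36% lower) and 61.6% (31.2% higher, 30.4% lower) were called in these 4 comparisons. Counted in either direction, the 3 of 17 at totalx2 day 10 are no more than that background, and the 6 of 17 at naivex2 day 14 are close to it. The log2 fold change of Fosl2, a FOS relative, was -1.40 ± 0.26 in naivex2 day 14 and -2.30 ± 0.29 in totalx2 day 12 GFP+ cells (adjusted p = 4.97e-04 and 1.66e-06). Egr1, an ERK-induced zinc finger factor, was at 60.2 ± 5.11 CPM in GFP+ and 108 ± 11.2 CPM in GFP- naivex2 cells at day 12. Gab1, an adaptor between receptors and the kinase cascade, was higher with GFP at naivex2 day 12, 192 ± 8.31 against 83.8 ± 3.25 CPM (log2 fold change 1.20 ± 0.08, adjusted p = 4.82e-09).

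Among the 16 other feedback inhibitors of this list, 15 were tested in the first and 14 in the second table. With GFP, 1 was higher and 2 lower in naivex2 at day 12, and 1 higher and 5 lower at day 14. In totalx2 these were 2 and 5 at day 10 and 2 and 9 at day 12. Counted in either direction, those in naivex2 are near the 16.6% and 31.3% of all genes called. In totalx2 22.4% of all genes were called at day 10 (9.36% lower) and 61.6% at day 12 (30.4% lower). The 5 of 14 and 9 of 14 called lower there are above these lower shares. Feedback inhibitors were not tested as a group. Dusp9, an ERK phosphatase of pluripotent cells, was higher with GFP in totalx2 at day 10, at 25.5 ± 0.444 against 7.12 ± 0.74 CPM (log2 fold change 1.84 ± 0.23, adjusted p = 7.68e-06). Il17rd, a membrane inhibitor of FGF receptors, was higher there as well (0.89 ± 0.15). Dusp14 was lower at day 12 (-2.06 ± 0.14). The genes named went in both directions, as Spry2 and Dusp6 did among the members.

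From the latest GFP+ cells to iPSC more list genes were called higher than lower in both tables. In naivex2 36 of 68 were higher and 10 lower, among them 12 and 0 of 15 feedback inhibitors and 13 and 2 of 17 targets. The second table had 28 higher and 10 lower of 66, with 9 and 2 of 14 feedback inhibitors and 11 and 0 of 17 targets. Of all genes 46.8% (24.3% higher, 22.5% lower) and 51.1% (25% higher, 26% lower) were called, which is close to the 38 of 66 in the second table. The median log2 fold change of the targets was 1.29 and 1.04, beside 0.02 and -0.01 for all genes. Fosb, an immediate-early factor, was at 144 ± 69.9 CPM in naivex2 iPSC against 10.2 ± 1.42 CPM in day 14 GFP+ cells and at 147 ± 23.9 CPM in wild-type iPSC against 5.75 ± 2.72 CPM in totalx2 day 12 GFP+ cells. The sorted cells and the harvested iPSC were handled differently by the labels' protocol, and the part of handling in immediate-early transcripts was not tested. Fgf17, a ligand, was higher in wild-type iPSC by 3.24 ± 0.37 (adjusted p = 9.23e-07).

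In the knockout clones 7 of 66 list genes were higher and 2 lower, where 10.7% (4.78% higher, 5.87% lower) of all genes were called. In either direction the count is near that share, and nothing about the list as a group is read from it. Of its 17 targets 4 were higher and 1 lower, and of 14 feedback inhibitors 2 and 1. Egr3 and Egr2, ERK-induced zinc finger factors, were at 6.14 ± 0.561 against 2.16 ± 0.754 CPM (log2 fold change 1.45 ± 0.41, adjusted p = 0.0285) and 17.5 ± 2.09 against 9.03 ± 1.21 CPM (0.95 ± 0.29, adjusted p = 0.0393). Sdc4, a heparan sulphate coreceptor of FGF receptors, was at 147 ± 3.42 against 76.8 ± 16.6 CPM (0.93 ± 0.14, adjusted p = 2.55e-04). Other list genes had lower means in the knockout than in the wild-type clones. Among them were the target Fos, 132 ± 6.96 against 201 ± 48.2 CPM, and the feedback inhibitor Dusp1, 106 ± 11.4 against 157.5 ± 2.95 CPM. Fos and Dusp1 were picked as examples of lower means, outside the rule used to name list genes, and their tests are not given here.

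Likeness of pattern was measured as Pearson's r of log2 CPM over the 21 libraries of each table, ranked by the smaller of the 2 among 11015 genes. These libraries share lines and groups, so r is a description. Fgf4 was most like Esrrb, a naive pluripotency factor (0.998 in the first and 0.989 in the second table), and Inpp5d (0.987 and 0.989). Dusp6 was most like Spry4 (0.942 and 0.799) and Spry4 in turn most like Dusp6 and then Etv4 (0.865 and 0.770). Dusp4 was most like Dusp5, another ERK phosphatase (0.952 and 0.851), and Spry2 most like the immediate-early gene Ier2 (0.952 and 0.935). Etv5 was most like Zic5 (0.916 and 0.909), Etv4 like the retinoic acid receptor Rarg (0.839 and 0.835), Spred1 like Ptpn12 (0.838 and 0.834), Fgfr1 like Adcy6 (0.967 and 0.976) and Fgfr2 like Kin (0.848 and 0.874). Between the 2 ETS factors r was -0.108 and 0.479, and Fgf4 had r of 0.942 and 0.880 with Etv5 against -0.354 and 0.275 with Etv4. In the first table MEF had the lowest mean of Fgf4 (0.087 CPM) and of Etv5 (48.6 CPM). Fgf4 averaged 185.6 CPM or more in every other group there. The r values of Fgf4 in that table, also with Esrrb, can thus rest largely on MEF against the rest. Dusp4 and Dusp5 were highest in MEF there (109.9 and 128.2 CPM), with 27.5 and 57.1 CPM in iPSC, the next highest group. Their r in that table can rest on MEF too, and r without MEF was not computed for any gene.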

How the data were processed

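Poly(A) RNA was sequenced with a stranded kit, per the labels' protocols. The deposited values are raw whole-number counts per gene name in 2 tables. Per the file headers the authors counted reads with featureCounts 1.5.3 over whole gene bodies with strand setting 2, and the submitters' processing notes name HISAT2 2.1.0, DESeq2 1.18.1 and build mm10. Introns thus enter the counts, and neighbours inside a span can too.

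Each table (21 libraries, 6540256 to 20783265 counts, 16132 and 15197 genes past edgeR's expression filter) was fitted once with edgeR 4.0.16 (quasi-likelihood, robust, TMM) over all its groups without a block, in R 4.3.3, and 17 comparisons were tested. The standard error is the log2 fold change divided by the square root of F. Calls are at a Benjamini-Hochberg adjusted p under 0.05 over all genes tested. Counting intervals cover counting error only. The fit was tested on simulated data. Alternatives were RLE and library-total scaling, other filters, DESeq2 1.42.0, a replicate block, fits of the contrast's groups alone, and leaving out libraries. The fit without libraries of over 8% mitochondrial reads was chosen after seeing the data.

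Replicate numbers 1 to 3 stand for the same lines in the sorted groups, as the sample titles show. Deviations from group means of same-numbered libraries had correlations of -0.121 to 0.359 over 63 naivex2 pairs (32 above 0.1) and 0.126 to 0.593 over 30 totalx2 pairs. The genotype clones share numbers only (-0.0909 to 0.0163 over 3 pairs). The title of totalx2 day 12 GFP- replicate 2 lacks the mCherry mark that the other titles of its gate carry, and its group follows the source name. P-values of the main fit measure the spread between libraries of a group, estimated over all 7 groups of a table. Without a block they do not measure the spread of differences within a line. Those of the knockout comparison rest partly on the spread of the sorted totalx2 cells.

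The members, the 79-gene list and the marker lists were chosen with earlier results of these data known. Named list genes come from the up to 3 called with the largest change per comparison, where 1 group averaged 5 CPM or more. Fos and Dusp1 in the knockout comparison were named outside this rule. Likeness was ranked among genes tested in both tables by the smaller r, taking the first 1 or 2. Promoter windows came from RefSeq (GRCm38.p6). Python 3.11.15 with scipy 1.17.1 and matplotlib 3.10.9 was used for the rest.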

Additional observations from a re-analysis of the deposited data

Results flagged for a closer look

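The difference between GFP+ and GFP- totalx2 cells changed between days 10 and 12 for 4 members, by an interaction term in edgeR's quasi-likelihood test. Fgfr1 went from -0.64 ± 0.09 to -1.23 ± 0.09 on the log2 scale, a change of -0.59 ± 0.13, adjusted p = 0.00289. Spred1 went from -0.31 ± 0.11 to -1.14 ± 0.11 (change -0.83 ± 0.16, adjusted p = 0.00115), Dusp6 from -0.75 ± 0.14 to -1.42 ± 0.14 (change -0.68 ± 0.20, adjusted p = 0.0173) and Spry4 from -0.44 ± 0.20 to -1.26 ± 0.20 (change -0.82 ± 0.28, adjusted p = 0.0343). All 4 were lower with GFP at both days by point estimate, and lower by more at day 12. Of all genes tested, 27.3% (10.6% higher, 16.7% lower) changed between the days by this test. The Spry4 call was lost in 8 of 20 alternatives (adjusted p up to 0.112), and the Dusp6 call without day 10 GFP+ replicate 2 (adjusted p = 0.0561). The fibroblast markers summed to 4403 to 11720 CPM in day 10 and 2208 to 2656 CPM in day 12 GFP+ cells. The primitive endoderm markers summed to 2125 to 2368 CPM in day 12 GFP- and 530.1 to 596.9 CPM in day 12 GFP+ cells, and overlapped at day 10. The part of cells with any of these markers in the changes was not tested.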

How the results depend on the processing

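Of 170 values of members (10 genes in 17 comparisons), 100 were called and 82 of these were called in every alternative. The other 18 were lost in some, 23 that were not called passed in some, and 0 called values changed direction. The replicate block gained 6 calls and lost 0. The numbers pair lines in the sorted groups. In the knockout comparison they are clone numbers only, and the block there added Fgf4 (0.48, adjusted p = 0.0377) and Dusp4 (0.48, adjusted p = 0.0454) to the calls.

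Counts of called members moved by over 1.5 times in 6 comparisons. For naivex2 GFP- cells from day 10 to 12 (5), leaving out 1 library gave 3 to 5. For totalx2 GFP- cells from day 10 to 12 (0), the replicate block gave 1, a fit of those groups 2, the fit without libraries over 8% mitochondrial reads 2, and leaving out 1 library 0 to 1. GFP+ against GFP- totalx2 cells at day 10 (5) gave 8 in a fit of those groups. Knockout against wild-type clones (4) gave 2 in a fit of the clones alone and 2 to 5 on leaving out 1 clone. The change of the GFP difference gave 1 with the replicate block, 1 with DESeq2 and 0 to 1 on leaving out 1 library in naivex2 (0), and 2 to 4 on leaving out 1 library in totalx2 (4). The cause was not tested. Calls over all genes split differently with library totals: 63.8% higher against 50.2% for naivex2 GFP- day 12 against day 10, 59.1% against 49.0% for iPSC against MEF, 59.0% against 48.3% for totalx2 day 10 against day 8, 37.4% against 49.0% for wild-type iPSC against day 12 GFP+ cells and 56.1% against 44.9% for knockout against wild-type clones. Fgf4 in MEF rests on 4 counts, so its ratio to MEF is known to the order of magnitude.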

Other observations

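The 6 leukocyte markers summed to 50.94 to 151.3 CPM in totalx2 day 10 GFP+ cells and to 10.31 to 25.01 CPM in the GFP- cells of that day. The day 10 GFP+ libraries thus lay above each GFP- library in this sum. At day 12 in totalx2 they did so too, 40.33 to 66.07 against 32.21 to 38.99 CPM. In naivex2 the sums overlapped at day 12 (41.48 to 46.77 in GFP+, 37.93 to 46.42 CPM in GFP-). At day 14 they did not (18.21 to 20.95 in GFP+, 15.12 to 17.82 CPM in GFP-). The part of cells with these markers in the differences by GFP was not tested.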
